A study of Rattus norvegicus with 8 samples.

Results

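A set of 43 genes measured at least 2 times higher in every hypoxic rat heart than in any normoxic one. They were chosen by their CPM values (counts of a gene per 1000000 counts of its library): a gene entered the set when its lowest CPM among 4 hypoxia libraries was at least 2 times its highest CPM among 4 normoxia libraries, and its mean over the 8 libraries was at least 1 CPM. Of 21549 gene IDs in the files, 12671 had a mean of at least 1 CPM, and 43 of these met the rule, a share of 0.339%. The reverse rule, lowest normoxia at least 2 times highest hypoxia, was met by 60 genes, a share of 0.474%. Because the rule is built on the contrast between the groups, the size of that contrast in these genes is given as a description, with no test.

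The study sequenced RNA from heart tissue of Sprague Dawley rats, an outbred laboratory strain, aged 3 months. One group of 4 rats was kept at normal oxygen (normoxia, with titles that say Control) and the other group of 4 under chronic hypoxia, with 1 library per rat. How little oxygen the rats breathed and for how long, their sex and the chamber of the heart sampled do not appear in the sources used here. Both groups share strain and age, and the labels name no genetic change or drug in either. Total counts ran from 26229304 to 32160710 per library, and every pair of libraries of a group differed by more than sampling noise.

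The response of a mammalian heart to sustained low oxygen is known to involve several programs. Cells stabilise hypoxia-inducible transcription factors, which raise genes for glycolysis, blood vessel growth and oxygen delivery, and the right ventricle enlarges as pressure in the lung circulation climbs, with a return of fetal contractile and natriuretic peptide genes and with deposition of matrix. Which of the 43 genes belong to these programs is not given here, because the files list Ensembl gene IDs and the gene table used here matched 0 of them. For the same reason the markers of cardiac muscle and of other cell types were not looked up, and the labelled tissue was not checked against them. Genes are therefore described by their gene-model length, the length in base pairs (bp) that the authors' normalisation used for each gene, and 2 of them by ID. In a bulk tissue library, a higher level of a gene in each cell cannot be told apart from a larger number of the cells that express it.

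As a group the 43 genes were a small part of the heart transcriptome that was several times larger in hypoxia. Their summed level was 428, 437, 447 and 426 CPM in normoxia libraries 1 to 4, which is 0.0426% to 0.0447% of all counts. It was 1535, 1979, 2390 and 2470 CPM in hypoxia libraries 1 to 4, or 0.153% to 0.247% of counts. The normoxic hearts lay within a narrow band (435 ± 9.43 CPM, mean ± SD, n = 4), while the hypoxic hearts spread widely (2094 ± 430 CPM, n = 4), with library 1 lowest. A single gene carried much of this sum. Without the most abundant gene of the set, the other 42 summed to 314 to 359 CPM in normoxia (333 ± 20.4 CPM) and to 1192 to 1646 CPM in hypoxia (1326 ± 216 CPM). In normoxia that gene was lowest in library 3, where the others were highest, which narrowed the band of the full sum.

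**Figure D1:**
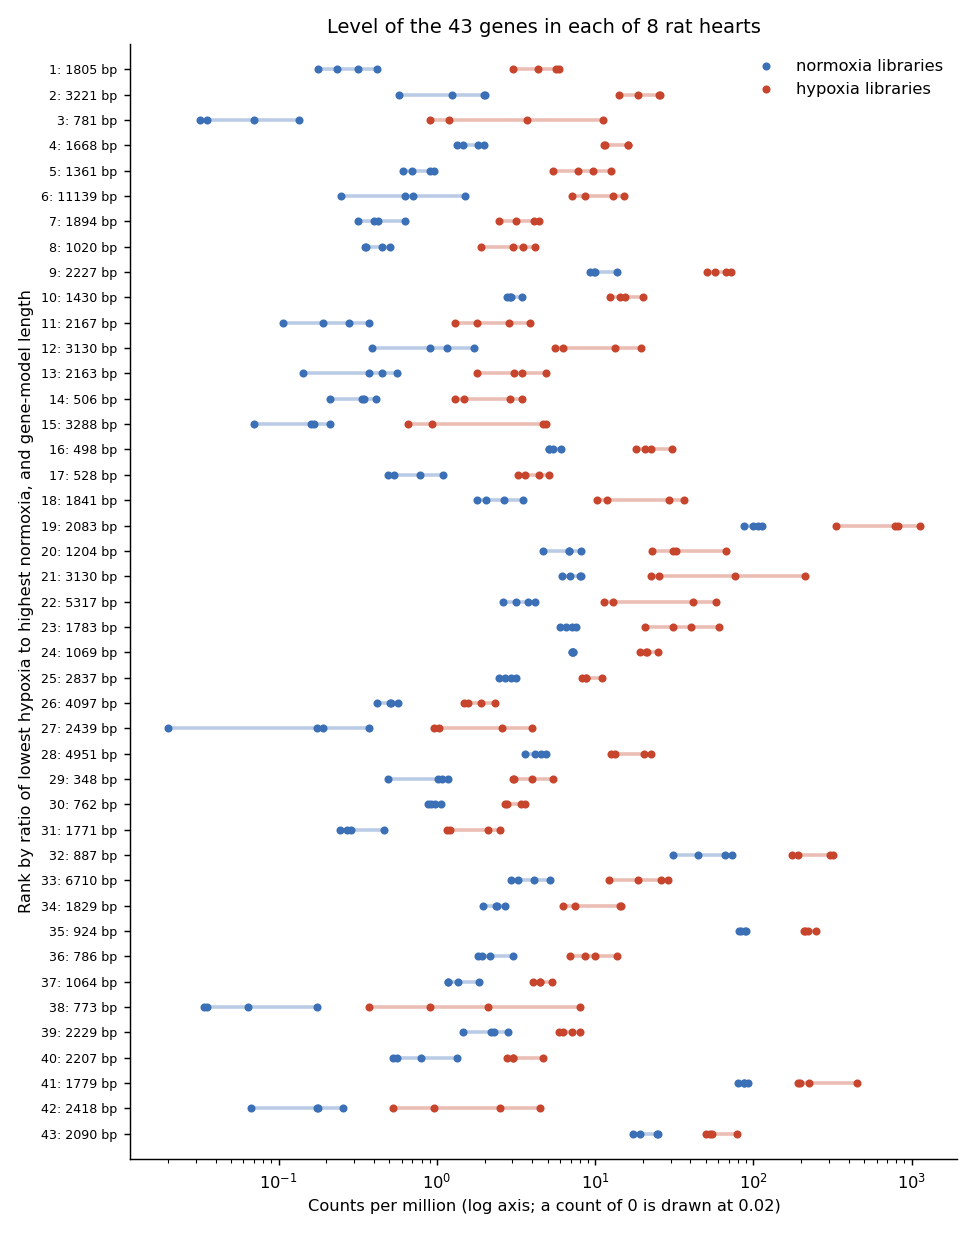
Level of each of the 43 genes in the 8 hearts. Each row is 1 gene, ordered by the ratio of its lowest hypoxia to its highest normoxia value and labelled with that rank and its gene-model length; each point is 1 library, on a log axis of CPM, and the bars join the lowest and highest library of a group. The rule leaves a gap between blue and red in every row, from a ratio of 7.29 in the top row to 2.03 in the bottom row.

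The gene with the widest separation between the groups was ENSRNOG00000010666, with a gene model of 1805 bp. It stood at 0.320, 0.177, 0.418 and 0.235 CPM in normoxia libraries 1 to 4 and at 5.64, 3.05, 5.95 and 4.33 CPM in hypoxia libraries 1 to 4. All hypoxic hearts were far above the normoxic range, and the lowest of them, library 2, was 7.29 times the highest normoxic heart. These levels rest on 5 to 12 counts per normoxia library and 98 to 164 per hypoxia library, so the 95% interval of that ratio, from counting error alone, was 3.99 to 14.6 (exact conditional binomial). The fitted log2 fold change was 4.18 (edgeR), with a standard error (SE) of 0.29 derived from the test statistic of that fit.

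The next was ENSRNOG00000012471, of 3221 bp, whose level was also low in normoxia. Its values were 0.575, 1.99, 2.02 and 1.24 CPM in normoxia and 18.6, 14.2, 25.8 and 25.3 CPM in hypoxia libraries 1 to 4. Hypoxia library 2 was again the lowest of its group, at 7.02 times the highest normoxic heart (95% interval 5.33 to 9.39). The group means differed 14.4-fold, and the log2 fold change was 4.03 (SE 0.33, edgeR).

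Another 8 genes completed the 10 with the widest separation, with ratios from 3.62 to 6.70. In 6 of them the normoxia mean was under 2 CPM, and the exceptions were a gene of 2227 bp and a gene of 1430 bp. The 2227 bp gene measured 13.8 CPM in normoxia library 1 and 9.26 to 10 CPM in the others, against 67.1, 56.9, 72.2 and 50.6 CPM in hypoxia, so that both groups were well counted (266 to 431 and 1575 to 1952 counts). It was the one gene that was among both the 10 widest ratios and the 10 highest levels in hypoxia. The 1430 bp gene measured 2.91, 3.44, 2.79 and 2.96 CPM in normoxia and 14.3, 12.4, 20.1 and 15.4 CPM in hypoxia, where the highest heart was 1.61 times the lowest.

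A gene of 1668 bp stood at 1.47, 1.35, 1.81 and 1.98 CPM in normoxia and 11.3, 16.1, 11.5 and 16.0 CPM in hypoxia, a mean fold of 8.30 and a ratio of 5.70 between the nearest hearts. The longest gene model of the set, 11139 bp, was among these 10 as well. Its normoxia values of 1.502, 0.248, 0.627 and 0.706 CPM were uneven, with library 1 apart at the top, and its hypoxia values were 7.19, 12.9, 8.58 and 15.3 CPM.

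**Figure D2:**
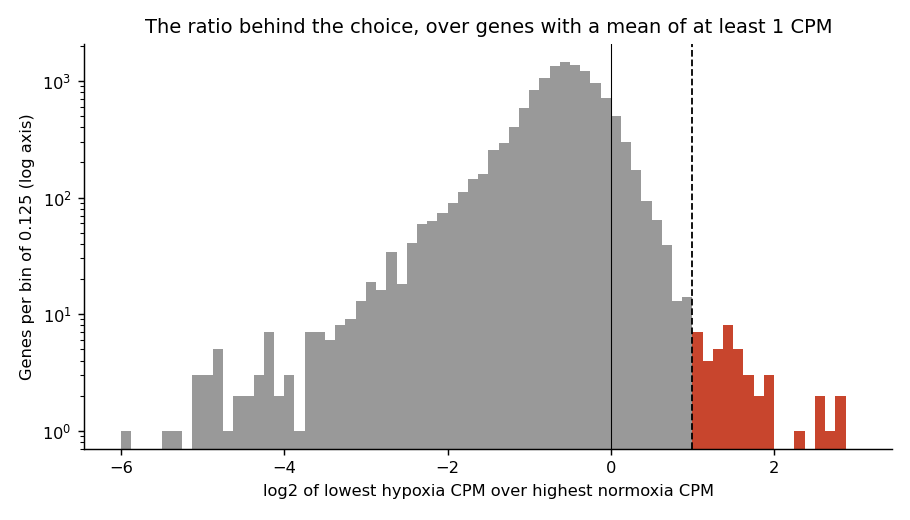
Histogram of the log2 ratio of the lowest hypoxia CPM to the highest normoxia CPM over the 12671 genes that average at least 1 CPM; the vertical axis counts genes on a log scale, red marks the 43 genes, the dashed line is a ratio of 2 and the solid line a ratio of 1 (the few genes with the lowest ratios fall outside the axis). The red bars are the far right end of one continuous distribution with a median ratio of 0.674.

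The set is the end of a continuous distribution and not a group set apart by a gap. In 1238 of the 12671 genes (9.77%) every hypoxic heart was above every normoxic one. The ratio was at least 1.25 in 325 genes, at least 1.5 in 126, at least 3 in 16 and at least 5 in 5. The 3 genes just inside the limit, of 1779, 2418 and 2090 bp, had ratios of 2.07, 2.07 and 2.03. The 3 just outside, of 1335, 1400 and 1953 bp, had ratios of 1.98, 1.97 and 1.96. The 1335 bp gene, for one, stood at 0.906 to 1.79 CPM in normoxia and at 3.54 to 10.5 CPM in hypoxia.

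Counting error alone could move a gene across that limit, in well counted genes close to it and in scarce ones. The 1779 bp gene, with 2392 to 13997 counts per library, had a 95% interval of 1.98 to 2.17 for its ratio. The genes of 773 and 2418 bp, with 1 to 5 and 2 to 8 counts per normoxia library, had intervals of 0.703 to 7.76 and 0.846 to 5.53. The rule chose the genes on this ratio, so the intervals describe its precision and test nothing. Reads of amplified libraries are not independent molecules, so these intervals cover counting error only.

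The rule, which compares the nearest hearts and not the means, removed most genes with a large mean change. The mean CPM was at least 2 times higher in hypoxia in 317 genes, of which 43 met the rule and 274 did not. The groups overlapped in 102 of those 274. In the other 172 every hypoxic heart was above every normoxic one, by less than the rule asks. In 52 of the 274, 3 of the 4 hypoxic hearts were at least 2 times above the highest normoxic heart and 1 was not. The heart that fell short was library 2 in 28 of these genes, library 1 in 12, library 3 in 7 and library 4 in 5.

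In abundance, the 43 genes were mostly of low to moderate level. Their median over the 8 libraries was 6.01 CPM, against 16.0 CPM over the 12671 genes, and their quartiles were 2.01 and 14.3 CPM. In hypoxia alone the median was 9.84 CPM, against 15.1 CPM over the 12671 genes, and in normoxia 1.46 CPM, against 16.6 CPM. Scaled for length, the median level was 0.983 FPKM (a level per unit of gene-model length) in normoxia and 5.46 FPKM in hypoxia, against medians of 6.82 and 5.93 FPKM over the 12671 genes. The median of the set was thus well under that of all genes in normoxia on both scales, and in hypoxia it was lower in CPM and near it in FPKM. The rule favours genes that are low in normoxia, so the gap in normoxia is partly set by the choice. For 19 of the 43 genes the normoxia mean was under 1 CPM, and these passed the filter on the mean only through their hypoxia values. In 5 equal bins of abundance over the 12671 genes, from lowest to highest, the set had 18, 10, 8, 3 and 4 genes.

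**Figure D3:**
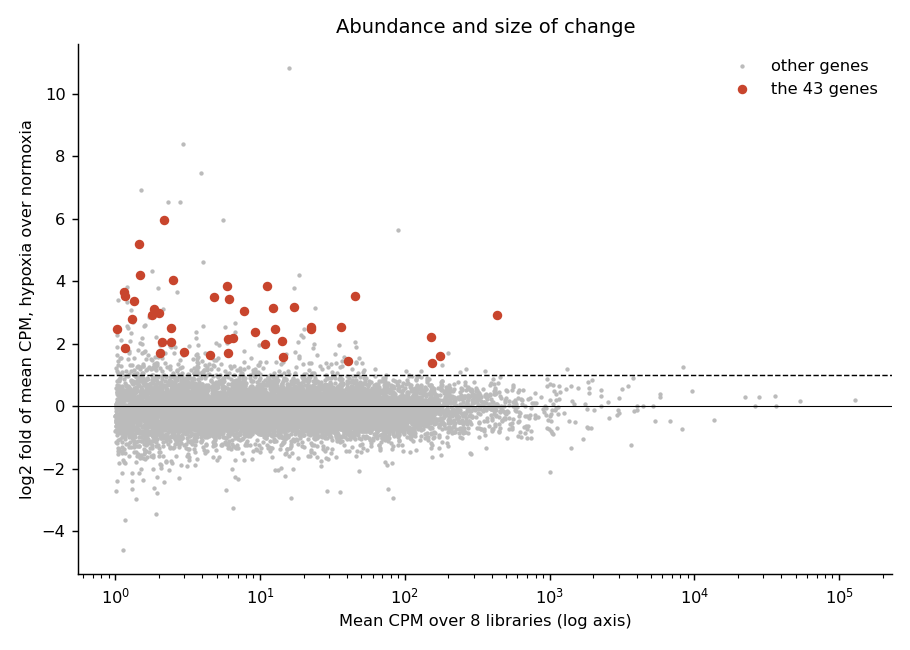
Mean CPM over the 8 libraries (horizontal, log axis) against the log2 fold of mean CPM in hypoxia over normoxia (vertical), for the 43 genes in red and the other genes averaging at least 1 CPM in grey; the dashed line is a fold of 2. The red points extend from 1.03 to 435 CPM and from a fold of 2.60 to 62.8, and grey points above the dashed line are the 274 genes in which at least 1 heart did not meet the rule.

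The 4 genes of the set that averaged at least 100 CPM in hypoxia were already well expressed in normoxia. The most abundant, of 2083 bp, stood at 114, 99.8, 87.6 and 107 CPM in normoxia and at 333, 788, 1126 and 824 CPM in hypoxia. Hypoxia library 1 was far below the other hypoxic hearts for this gene, yet 2.93 times the highest normoxic heart. Its mean level went from 49.0 to 369 FPKM, and it held 19.6% to 26.6% of the set's counts in normoxia and 21.7% to 47.1% in hypoxia. The log2 fold change was 3.09 (SE 0.31, edgeR).

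The remaining 3 of these abundant genes had smaller mean folds, and their evenness differed. One of 924 bp measured 80.6, 84.0, 87.8 and 89.3 CPM in normoxia and 211, 220, 208 and 249 CPM in hypoxia. This was the smallest mean fold of the set, 2.60, and also the tightest hypoxia group, with the highest heart 1.20 times the lowest. A gene of 887 bp measured 31.1, 66.0, 73.1 and 44.8 CPM in normoxia, a wide spread, and 191, 318, 176 and 304 CPM in hypoxia. The gene of 1779 bp measured 86.8, 87.7, 93.0 and 80.4 CPM in normoxia and 193, 196, 225 and 449 CPM in hypoxia. Library 4 stood apart from the other hypoxic hearts in that gene.

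A middle class of 17 genes averaged 10 to 100 CPM in hypoxia, with mean folds of 2.76 to 14.4 and a median of 5.75. A gene of 1069 bp was the most even of them. It stood at 7.19, 7.20, 7.11 and 7.23 CPM in normoxia, a coefficient of variation (CV, the SD as a percentage of the mean) of 0.747%, and at 20.9, 24.8, 19.1 and 21.4 CPM in hypoxia, a mean fold of 3.00. A gene of 3130 bp was the most uneven: its normoxia values of 8.05, 8.12, 6.13 and 6.89 CPM were close together, and its hypoxia values of 210, 22.7, 76.0 and 25.4 CPM differed 9.28-fold. Its mean fold of 11.5 therefore describes libraries 1 and 3 more than libraries 2 and 4.

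The other 22 genes averaged under 10 CPM in hypoxia. Their normoxia means ran from 0.0679 to 2.82 CPM and their mean folds from 3.12 to 62.8. In 6 genes at least 1 normoxia library had 3 counts or fewer, and a gene of 2439 bp had a count of 0 in normoxia library 2, which allows up to 0.106 CPM there. That gene stood at 0.192, 0, 0.174 and 0.370 CPM in normoxia and at 0.963, 2.58, 4.00 and 1.03 CPM in hypoxia. By contrast, 23 of the 43 genes had at least 20 counts in each normoxia library, and 27 had at least 100 in each hypoxia library.

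Most of the large mean folds were in genes of low level in normoxia. Folds of at least 10 were seen in 12 genes, of 5 to 10 in 15, of 3 to 5 in 13 and of under 3 in 3. Among the 12, the median normoxia level was 0.262 CPM and the median hypoxia level 4.50 CPM. The highest normoxia level among them was 7.30 CPM, in the gene of 3130 bp, which is above the upper quartile of the set (4.87 CPM). The largest, 62.8-fold, was in a gene of 781 bp that stood at 0.0320, 0.0355, 0.0697 and 0.135 CPM in normoxia, from 1 to 4 counts per library, and at 3.71, 0.902, 11.2 and 1.19 CPM in hypoxia. Its ratio between the nearest hearts was 6.70, with a 95% interval of 2.35 to 26.2. The gene of 773 bp, at 0.0639, 0.0355, 0.174 and 0.0336 CPM in normoxia and 2.097, 0.373, 7.97 and 0.899 CPM in hypoxia, was next with 36.9-fold.

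Across the whole table, edgeR fitted log2 fold changes with a median of 0.01 over 14214 genes. In the 43 genes the log2 fold changes ran from 1.56 to 5.99 with a median of 2.69, and their SE from 0.11 to 1.04 with a median of 0.31, against 0.14 over all genes. At an adjusted p under 0.05 (edgeR quasi-likelihood test, Benjamini-Hochberg over all genes), 17.7% of all genes were called higher and 43 of the 43 genes were. That share uses TMM scaling, and on library totals, the scaling of the rule, it was 10% (1426 of 14214 genes), with 43 of the 43 again called. The rule used the same contrast, so nothing is read from either count.

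How the 4 hypoxic hearts differed from each other was only partly fixed by the rule, which looks at the lowest of them. The 43 genes varied among them more than the heart transcriptome at large. The median CV of the set was 30.5% in hypoxia and 24.4% in normoxia, against 15.9% and 8.12% over the 12671 genes. The CV was larger in hypoxia than in normoxia in 29 of the 43 genes (67.4%) and in 82.7% of the 12671. The set holds more genes of low count, whose CV has a larger share of counting error, and the part of that in these values was not tested.

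In 8 genes of the set the highest hypoxic heart was under 1.5 times the lowest. Their mean folds were 2.60 to 8.30, and they included the genes of 924, 1069, 1668 and 2227 bp described above. A gene of 2837 bp was another, at 3.16, 2.70, 2.47 and 2.96 CPM in normoxia and 8.80, 8.30, 10.98 and 8.70 CPM in hypoxia. In 25 genes the highest hypoxic heart was 1.5 to 3 times the lowest, and in 10 at least 3 times. The median of highest over lowest hypoxic heart was 2.13 in the set, against 1.42 over all genes averaging at least 1 CPM. A value under 1.5 was therefore usual among all genes and less common in the set.

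In 6 genes the hypoxic hearts differed at least 5-fold. Besides the genes of 781 and 773 bp and the 3130 bp gene with a normoxia mean of 7.30 CPM, these were genes of 2418, 3288 and 5317 bp. The 2418 bp gene stood at 0.256, 0.177, 0.174 and 0.0673 CPM in normoxia and 2.51, 0.529, 4.46 and 0.963 CPM in hypoxia. Like those of 781 and 773 bp it was highest in hypoxia library 3, then library 1, then library 4, and lowest in library 2. That order was seen in 6 of the 43 genes, and 17 of the 24 possible orders were seen at least once.

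The genes of 3288 and 5317 bp showed another pattern. The 3288 bp gene stood at 0.928, 0.653, 4.92 and 4.66 CPM in hypoxia libraries 1 to 4, over 0.0697 to 0.213 CPM in normoxia. The 5317 bp gene stood at 11.4, 13.0, 41.4 and 57.9 CPM in hypoxia, over 2.62 to 4.14 CPM in normoxia. In both, libraries 3 and 4 were well above libraries 1 and 2. A gene of 1841 bp did the same, at 11.9, 10.3, 36.6 and 29.1 CPM in hypoxia and 1.78 to 3.48 CPM in normoxia.

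**Figure D4:**
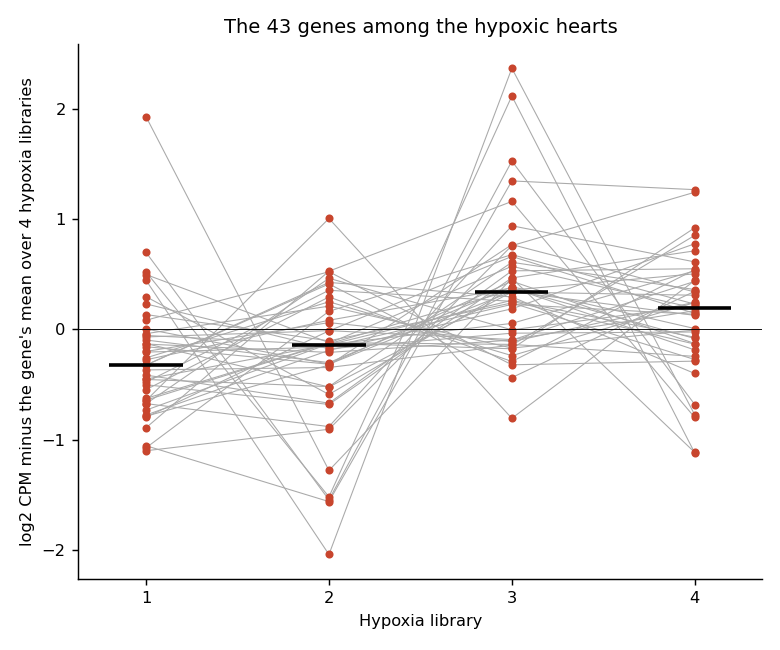
The 43 genes among the 4 hypoxic hearts: log2 CPM in each hypoxia library minus the gene's mean over the 4, with 1 point per gene and library, grey lines joining the points of a gene and black bars at the median. The median is −0.32 in library 1, −0.14 in library 2, 0.34 in library 3 and 0.19 in library 4.

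Libraries 3 and 4 stood above libraries 1 and 2 for much of the set. Both were above both in 19 of the 43 genes (44.2%), against 25.3% of the 12671 genes, and the reverse held in 2 genes (4.65%), against 25.7%. Library 3 was the highest hypoxic heart in 20 genes (46.5%), library 4 in 12 (27.9%), library 2 in 8 (18.6%) and library 1 in 3 (6.98%). Among the 12671 genes the shares were 38.8% for library 3, 11.3% for library 4, 12.8% for library 2 and 37.0% for library 1. Library 1 was the lowest in 18 genes of the set (41.9%) and library 2 in 17 (39.5%), against 16.8% and 33.4% of all. These shares are descriptions of single animals, and genes of one library are not independent of each other.

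Because 2 pairs of hypoxic hearts differed in this way, the rule was also applied to each pair alone. With libraries 1 and 2 left out, 152 genes met it, 40 of the 43 among them. With libraries 3 and 4 left out, 67 met it, with 34 of the 43. A rule over fewer animals is easier to pass, and a gene of the 43 is lost only where the mean then falls under 1 CPM. Leaving out library 2 alone gave 71 genes, and leaving out any other single library gave 43 to 57.

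The gene models of the set were shorter than those of the heart at large. Their median length was 1829 bp, with quartiles of 1042 and 2429 bp, against 2414 bp with quartiles of 1566 and 3711 bp over the 12671 genes. Models under 1000 bp made up 10 of the 43 genes (23.3%), against 10.02% of the 12671, and models over 4000 bp made up 5 (11.6%), against 21.4%. In 10 equal bins of length over all genes, the shortest bin, 53 to 999 bp, held 10 genes of the set. The longest, 5324 to 29464 bp, held 2. From short to long, the bins between held 5, 2, 7, 7, 3, 4, 1 and 2, so the count did not fall steadily.

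**Figure D5:**
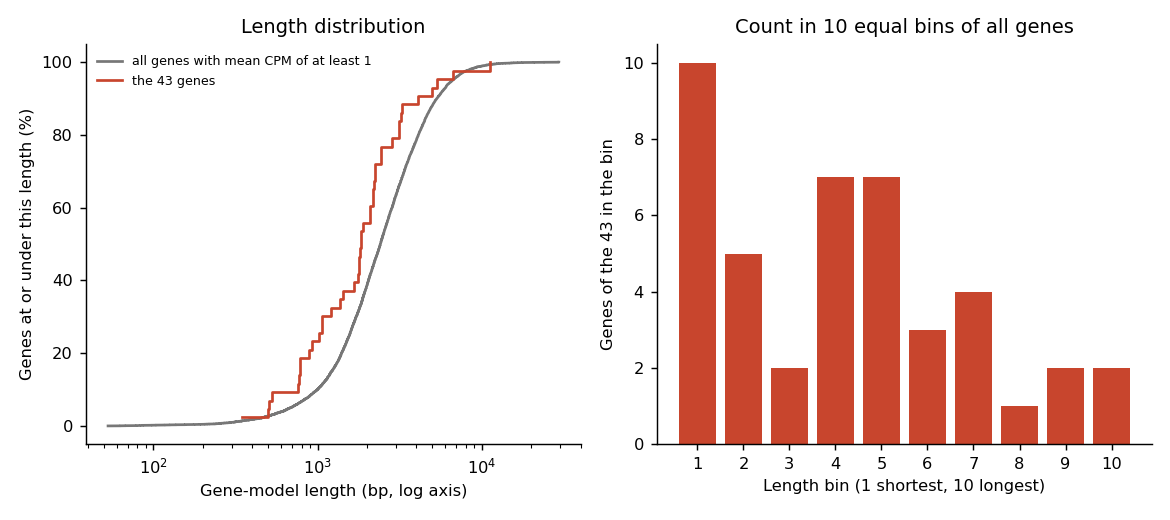
Gene-model length of the 43 genes. Left, the percentage of genes at or under each length (log axis). The 43 genes are in red and the 12671 genes averaging at least 1 CPM in grey. Right, the number of the 43 genes in each of 10 equal bins of length. The shortest bin holds 10 and the longest 2, without a steady fall between them.

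Length moved with the contrast in all genes, so this is given beside it. The median log2 fold of mean CPM went from 0.23 in the shortest bin to −0.42 in the longest over the 12671 genes. Once each library's own trend with length was taken out, 41 of the 43 genes still met the rule. Another 15 joined, 56 in all. That step also brought the libraries to a common scale, so a change from length cannot be told apart here from one of scaling. Both short and long genes of the set covered a wide range of levels: the 10 under 1000 bp had hypoxia means of 2.28 to 247 CPM, and the 5 over 4000 bp had 1.82 to 30.9 CPM. The shortest, of 348 bp, measured 1.02, 1.17, 0.488 and 1.08 CPM in normoxia and 3.99, 5.41, 3.01 and 3.08 CPM in hypoxia.

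The scaling of the libraries touches the size of the set as well. Library totals place most genes lower in hypoxia, with a median fold of 0.891 over the 12671 genes. Under TMM scaling, a trimmed mean that centres most genes on no change, 64 genes met the rule, the 43 and 21 more. TMM factors were 1.03 to 1.08 in the normoxia libraries and 0.894 to 0.996 in the hypoxia libraries. This scaling therefore raises the ratio of every gene, so none of the 43 could fall under a ratio of 2 with it.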

How the data were processed

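Heart RNA of 8 rats (4 normoxia, 4 chronic hypoxia, grouped by their titles) was extracted with Trizol and made into NEBNext Ultra RNA libraries (per the labels' protocols). The authors deposited whole-number read counts per Ensembl gene ID, not normalized, and FPKM values. HISAT2 2.1.0, Bowtie2 2.2.3, HTSeq 0.6.0, bcl2fastq and, as genome, rn6 come from lists per the submitters' processing notes. Their roles, the annotation release and the strand setting are absent from the sources used here, so overlapping, antisense and near-identical genes may share reads. Dividing the deposited count by FPKM and library total returned 1 length per gene in 100% of values above 0 (relative tolerance 0.001). The RefSeq gene table (assembly GRCr8) matched 0 of 21549 IDs, so names, gene lists, cell markers and promoters were not used.

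The set was found with numpy 2.4.6 and pandas 2.3.3. Its definition, like the measures described, was chosen with earlier results of these data known. IDs are printed for the 2 widest ratios. Counts were fitted with edgeR 4.0.16 (filterByExpr, TMM, quasi-likelihood, group only) in R 4.3.3, and tested on simulated data. Each SE was computed from that fit, as the size of the log2 fold change over the square root of its F statistic. Alternatives were other scalings, filters and ratios, DESeq2 1.42.0, the replicate number as a block and each library left out. The removal of 2 hypoxia libraries and of a lowess length trend (span 0.3, statsmodels 0.14.6) was chosen after seeing the data. A count of 0 allows 3 counts, 0.0933 to 0.114 CPM. The labels name separate rats, and libraries within a group differed by 9.30 to 14.9 (normoxia) and 33.8 to 98.2 (hypoxia) in chi-square per degree of freedom. Over all genes compared, hypoxia libraries 1 and 2 (42.1) and libraries 3 and 4 (33.8) were closer than the other hypoxia pairs (67.0 to 98.2).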

Additional observations from a re-analysis of the deposited data

Results flagged for a closer look

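In each gene of the set, and in its summed level, the 4 values of each group were searched for 1 library far from the other 3, by the gap to the nearest value as a share of the range (the 95% limit of Dixon's test). Of 90 groups of 4, 5 had such a library (5.56%), and chance marks about 5% of groups. In the 1779 bp gene hypoxia library 4 was at 449 CPM, against 193 to 225 in the others. Hypoxia library 4 was also apart in the 2090 bp gene, at 78.8 CPM against 50.4 to 54.4, and in the summed level of the set without its most abundant gene, at 1646 CPM against 1192 to 1265. In the 2207 bp gene hypoxia library 1 was at 4.68 CPM, against 2.79 to 3.05. In the 2227 bp gene normoxia library 1 was at 13.8 CPM, against 9.26 to 10 in the others.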

How the results depend on the processing

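The number of genes that met the rule followed its own limits: 126 at a ratio of at least 1.5, 16 at a ratio of at least 3, 23 at a mean of at least 5 CPM and 95 with no filter on the mean. It was 152 with hypoxia libraries 1 and 2 left out and 67 with libraries 3 and 4 left out. Leaving out 1 library gave 43 to 71, with 71 for hypoxia library 2. It stayed within 1.5 times of 43 in 12 of the 19 alternatives, from 37 (mean FPKM of at least 1, 34 of the 43 among them) to 64 (TMM), and the RLE scaling gave 62. Under DESeq2, RLE, library totals alone, no filter, the replicate block and each library left out, 43 of the 43 genes were called higher. With a filter at 5 CPM it was 23, as 20 were not tested. Over all genes, from 1426 (library totals alone) to 2834 (DESeq2) were called higher in these settings. The rule used the same contrast, so nothing is read from the calls of the 43. Calls over all genes were 3315 to 5296 in 14 alternatives. Library totals alone moved the median log2 fold change of all genes to −0.17 and gave 1426 higher and 3870 lower, against 2516 and 2177 with TMM. The replicate block gave 3841 calls in all, but the labels do not say that the replicate numbers pair rats. Libraries that share a number were compared after taking each gene's group mean off its log2 CPM. Correlations of these deviations were −0.0847 to 0.0187, and 0 of 4 normoxia libraries matched best with their own number. So few libraries cannot show that a weak pairing is absent. The median log2 fold change of the 43 genes was 2.52 to 2.84. Depth limits the scarce genes: in 6 of the 43 at least 1 normoxia library had 3 counts or fewer.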
